A study of Mus musculus with 9 samples.

Results

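The genes Myh6 and Myh7 encode the alpha and beta heavy chains of cardiac myosin, and they lie head to tail on mouse chromosome 14. Chromatin accessibility at this locus was read by ATAC-seq, in which a transposase cuts open DNA and leaves sequencing adapters there, in sorted heart muscle nuclei of CD1 mice. The libraries came from postnatal days 1, 14 and 56 (P1, P14 and P56), with 3 libraries per stage. Members were the rows named Myh6 and Myh7 among 33844 counted regions around transcription start sites (TSS), and the 4 peaks of the locus window among 25915 peaks. All 9 libraries came from unmodified CD1 animals as far as the labels say. Each was a pool of 12 hearts at P1 or of 6 to 7 hearts at P14 and P56. Nuclei were gated on Pcm1, a protein of the cardiomyocyte nuclear envelope. The growth protocol mentions an operation, without saying whether these hearts had one, and sex, batch and collection time are not given in the sources used here.

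Myosin heavy chains are the motor proteins of the thick filament, and the cardiac pair sets how fast heart muscle contracts. Myh6 encodes the faster ATPase and Myh7 the slower one. In rodent ventricles the Myh7 transcript prevails before birth, Myh6 takes over afterwards as thyroid hormone rises, and Myh7 RNA returns in hypertrophy and failure. The locus also holds regulatory RNA genes. Mir208a sits in an intron of Myh6 and Mir208b in an intron of Myh7, and both make microRNAs of the myosin family. Mhrt is a long noncoding RNA transcribed away from Myh6, antisense to the 3′ part of Myh7, and its product binds the chromatin remodeller Brg1 in mouse heart. The libraries measure open DNA and not RNA.

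The positions are GRCm38 coordinates, with genes from RefSeq. Myh6 (ENSMUSG00000040752) spans 54941921 to 54968017 and Myh7 (ENSMUSG00000053093) spans 54970684 to 54994626, both on the minus strand. Mhrt (ENSMUSG00000097652) spans 54968787 to 54974349 on the plus strand. Mir208a lies at 54949060 to 54949142 and Mir208b at 54975700 to 54975776. The window holds 13 RefSeq genes, of which 11 have a row in the TSS table. The start of Myh6 used here is at 54966607, and the outer start of Myh7 at 54994626, with a further one at 54994549.

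The windows around the starts of the pair and of Mhrt (250 bp before to 50 bp after the start, RefSeq, GRCm38.p6) are shown because the results turn on these starts. Capitals mark matches to the M-CAT core (GGAATG, the site known for TEAD factors in muscle promoters) and to TATAAA.
Myh6, chr14:54966558-54966857, minus strand: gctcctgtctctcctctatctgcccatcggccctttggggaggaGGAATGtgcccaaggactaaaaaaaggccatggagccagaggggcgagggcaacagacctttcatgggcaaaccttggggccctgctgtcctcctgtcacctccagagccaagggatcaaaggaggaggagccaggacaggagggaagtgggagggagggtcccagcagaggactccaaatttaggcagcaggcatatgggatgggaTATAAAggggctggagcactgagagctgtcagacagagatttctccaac
Myh7, chr14:54994577-54994876, minus strand: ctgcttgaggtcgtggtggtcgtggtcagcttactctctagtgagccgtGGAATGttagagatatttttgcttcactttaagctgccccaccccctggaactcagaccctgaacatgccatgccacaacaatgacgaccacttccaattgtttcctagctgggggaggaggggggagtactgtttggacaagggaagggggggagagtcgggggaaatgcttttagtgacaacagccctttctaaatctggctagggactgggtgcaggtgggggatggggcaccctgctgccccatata
Mhrt, chr14:54968537-54968836, plus strand: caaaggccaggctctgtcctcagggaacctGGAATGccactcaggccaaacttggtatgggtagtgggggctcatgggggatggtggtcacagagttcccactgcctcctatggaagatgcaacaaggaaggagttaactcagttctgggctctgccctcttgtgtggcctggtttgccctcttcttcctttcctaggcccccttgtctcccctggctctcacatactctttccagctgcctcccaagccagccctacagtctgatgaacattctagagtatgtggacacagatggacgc
All 3 windows hold the M-CAT core, 206 bp upstream of the Myh6 start, 201 bp upstream of the Myh7 start and 220 bp upstream of the Mhrt start. Of 32851 promoter windows of this length, 14.7% hold that motif on either strand. TATAAA lies just downstream of the listed Myh6 start and is found in 13.6% of the windows. The window of the inner Myh7 start holds TATATA 31 bp upstream, a motif in 5.67% of windows. The nuclear receptor half-site AGGTCA, present in 16.3% of windows, has no exact match in the windows of Myh6 and Myh7. Half-sites that differ from this sequence by a base were not searched for, so such sites may be present. The coding parts of the pair are alike, and how reads that fit both were treated is not given in the sources used here. The longest run that the Myh6 and Myh7 start windows share is 10 bases.

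The microRNAs of the locus are shown with the seed (bases 2 to 8) in capitals, beside the one from Myh7b, the third cardiac member of the family, on chromosome 2.
mmu-miR-208a-3p: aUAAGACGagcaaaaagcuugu
mmu-miR-208b-3p: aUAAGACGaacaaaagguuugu
mmu-miR-499-5p: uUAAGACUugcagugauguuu
The products of Mir208a and Mir208b share the seed UAAGACG, and that of Mir499 has the seed UAAGACU.

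Levels are given as CPM, in which each library's counts are put on the same total after TMM scaling by edgeR. The P14 libraries were the shallowest, with 481217 to 893032 TSS counts, against 1414979 to 2167369 for P1 and 874639 to 1468352 for P56. The most accessible 10% of TSS regions held between 31.9 and 33.0% of a library's counts at P1, between 34.1 and 35.3% at P14 and between 35.5 and 36.8% at P56, a concentration that separated the stages. The defining markers of cardiomyocytes were present in every library. Their summed level over 16 genes was 772 to 1588 CPM at P1, 1183 to 1525 CPM at P14 and 1454 to 3516 CPM at P56. The 10 fibroblast genes summed to 427 to 444 CPM in P1 libraries, 386 to 477 CPM in P14 libraries and 388 to 434 CPM in P56 libraries. The 10 endothelial genes summed to 465 to 576 CPM at P1, to 592 to 599 CPM at P14, above every other library, and to 451 to 551 CPM at P56. The 10 leukocyte genes summed to 208 to 240 CPM in P1 libraries, 190 to 221 CPM in P14 libraries and 211 to 221 CPM in P56 libraries. The 10 smooth muscle and pericyte genes summed to 310 to 322 CPM at P1, below the 350 to 408 CPM of P14 and the 396 to 473 CPM of P56. The 8 skeletal muscle genes summed to 264 to 343 CPM at P1, below the 388 to 434 CPM of P14, and to 342 to 445 CPM at P56. No tested marker had a count of 0 in any library. Of the 16 cardiomyocyte genes, 8 rose between P1 and P56, Myh6 and Myh7 among them, as did 1 of the 10 smooth muscle and pericyte genes (Smtn) and 0 genes of the other 4 lists, where 1.72% of all regions rose. Their part in the results that follow was not tested.

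The start region of Myh7 was more accessible at P56 than at P1. It had 48.7, 71.3 and 104.5 CPM in the P1 libraries, 92.2, 154.0 and 145.5 CPM in the P14 libraries, and 174.4, 433.4 and 241.2 CPM in the P56 libraries. Every P56 library was above every P14 and every P1 library, while P14 and P1 overlapped. The mean was 74.8 ± 28.1 CPM at P1, 131 ± 33.5 CPM at P14 and 283 ± 134 CPM at P56 (SD, n = 3 each). P56 exceeded P1 by 1.93 ± 0.239 on the log2 scale (SE), 3.82-fold (edgeR quasi-likelihood test, adjusted p = 4.32e-05). In that comparison 2.53% of all 33747 TSS regions tested passed an adjusted p of 0.05, and 1.72% were higher at P56. P56 exceeded P14 by 1.16 ± 0.249 (adjusted p = 0.113) and P14 exceeded P1 by 0.77 ± 0.259 (adjusted p = 0.492), neither past the threshold, which only 0.00296% and 0.0119% of regions passed. The difference of P56 and P14 did pass with these 2 stages fitted alone (1.13, edgeR adjusted p = 0.0177) and without P1 replicate 1 (1.15, adjusted p = 0.00372) or P56 replicate 1 (1.40, adjusted p = 0.00381). In 16 of 21 alternatives it stayed uncalled. Examples were the fit without P56 replicate 2 (0.71, edgeR adjusted p = 0.965) and the DESeq2 Wald test (1.15, adjusted p = 0.852). The change before P14 minus that after it was -0.38 ± 0.451 (adjusted p = 0.907), in a contrast that called 0.00889% of regions. The nuclei of a library are pooled, so more nuclei with an open start and a more open start per nucleus cannot be told apart.

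Myh6 rose too between P1 and P56, with libraries that overlapped between the stages. Its start region had 44.3, 93.2 and 138.1 CPM at P1, 71.1, 132.9 and 127.0 CPM at P14, and 111.0, 276.2 and 168.9 CPM at P56. The lowest library was P1 replicate 1 and the highest P56 replicate 2, and P56 replicate 1 lay below P1 replicate 3. The mean was 91.9 ± 46.9 CPM at P1, 110 ± 34.1 CPM at P14 and 185 ± 83.8 CPM at P56 (SD, n = 3 each). P56 exceeded P1 by 1.03 ± 0.268 on the log2 scale (SE), 2.04-fold (edgeR adjusted p = 0.0354). The difference of P56 and P14 was 0.80 ± 0.290 (adjusted p = 0.357), and that of P14 and P1 was 0.23 ± 0.295 (adjusted p = 0.859).

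The calls of the pair differed in how far they rested on single libraries. Myh7 stayed called when any 1 library was left out, at log2 changes of at least 1.47, and at 1.19 without both P1 replicate 1 and P56 replicate 2. Myh6 lost its call without P56 replicate 2 (0.61, adjusted p = 0.206), and also without P1 replicate 1 or 2, P14 replicate 2 or 3, or P56 replicate 3, and its change was 0.22 (adjusted p = 0.488) without both P1 replicate 1 and P56 replicate 2. With the concentration of TSS counts as a covariate, the change was -0.23 (adjusted p = 0.996) for Myh7 and -1.20 (adjusted p = 0.992) for Myh6. This concentration is higher at later stages, so the covariate and the stage cannot be told apart in these libraries.

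**Figure D1:**
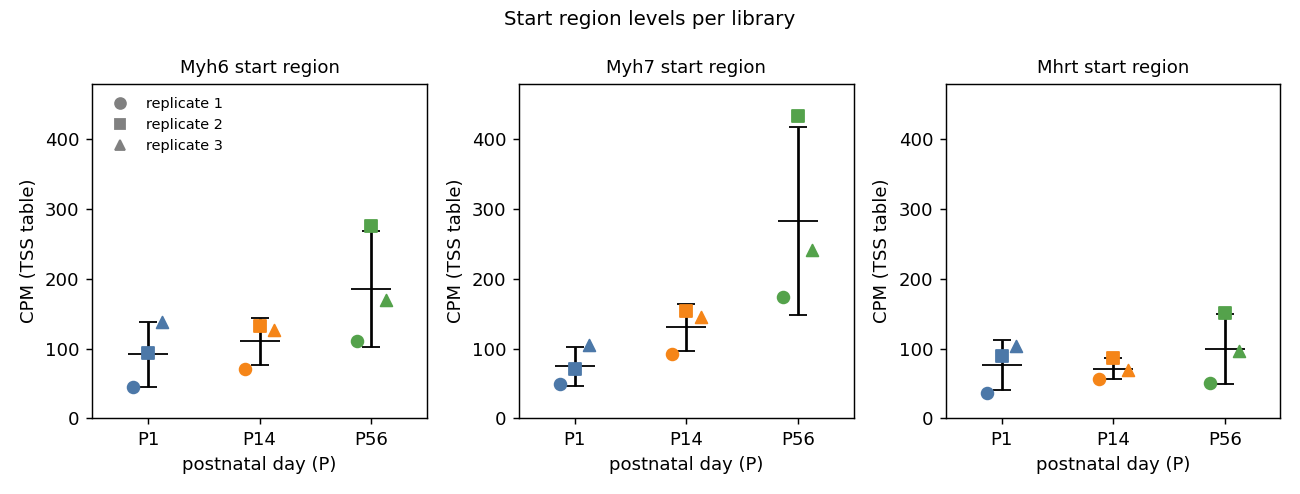
CPM at the start regions of Myh6, Myh7 and Mhrt in each library, by postnatal day; bars are the mean and SD of 3 libraries and marker shapes are replicate numbers. The Myh7 libraries of P56 (174.4 to 433.4 CPM) lie above all others, while those of Myh6 and Mhrt overlap between stages.

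Within a library, the balance of the pair does not depend on the scaling between libraries. At P1 the count of the Myh7 region was 1.10, 0.765 and 0.757 times that of the Myh6 region, so 1 library had more Myh7 than Myh6 and the other pair less. At P14 the ratio was 1.30, 1.16 and 1.15, and at P56 it was 1.57, 1.57 and 1.43. The stages did not overlap, and P1 replicate 1 was the nearest to P14. The Myh7 share of the summed counts was 46.2 ± 5.27% at P1, 54.5 ± 1.70% at P14 and 60.3 ± 1.32% at P56 (SD, n = 3 each). Single libraries carry counting error: P56 replicate 2, the deepest at this locus with 576 Myh7 and 367 Myh6 counts, had a share of 61.1% (95% Wilson interval 57.9 to 64.1%), against 43.3% in P1 replicate 2 (37.2 to 49.7%, 104 and 136 counts). The interval of P1 replicate 1 (share 52.3%, 45.7 to 58.9%) overlapped that of every P56 library, while those of P1 replicates 2 and 3 did not. The intervals of all P14 libraries also overlapped those of all P56 libraries. These intervals cover counting error only. The log2 ratio differed over the 3 stages by an exact permutation test of F over every assignment of libraries to stages (p = 0.00357, the smallest it can give; 0.00536 after Benjamini-Hochberg adjustment over 3 such tests). Between stages, the mean log2 ratio of P56 exceeded that of P1 by 0.82 (a 1.77-fold ratio), P14 exceeded P1 by 0.48 and P56 exceeded P14 by 0.34. Each of these had an exact permutation p of 0.1, the smallest that 3 against 3 libraries can give. With any 1 library left out, the P56 with P1 difference was between 0.73 and 1.00.

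**Figure D2:**
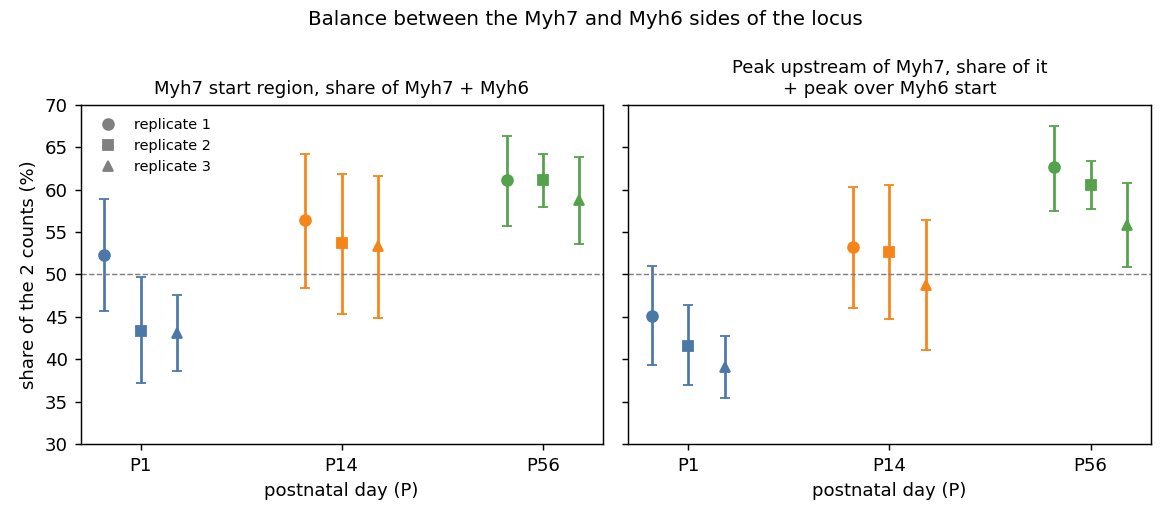
Share of the counts on the Myh7 side of the locus in each library, with 95% Wilson intervals, from the start regions (left) and from the peaks (right); the dashed line marks equal counts. Shares at P56 (58.8 to 61.1% at the starts) lie above those at P1 (43.1 to 52.3%), with P14 between them.

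The peak table gives a second view of the same libraries, with its own regions. Of the 4 peaks in the window, 1 lies over the starts of Myh6 and Mhrt (chr14:54965341-54969222, 3882 bp) and none lies in Myh7. The nearest to Myh7 (chr14:55002040-55006120, 4081 bp) begins 7414 bp upstream of its outer start and overlaps Gm31251, a long noncoding RNA gene running antisense to Myh7. The others lie inside Efs (chr14:54919196-54921338, 2143 bp) and over the start of Ngdn (chr14:55014003-55016362, 2360 bp). No genome sequence was used here, so the peaks are given by position.

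The peak upstream of Myh7 was higher at P56. It had 102.0, 189.8 and 217.7 CPM in the P1 libraries, 173.6, 245.9 and 246.2 CPM in the P14 libraries, and 290.3, 650.3 and 357.4 CPM in the P56 libraries. All P56 libraries were above all others, and P14 and P1 overlapped. P56 exceeded P1 by 1.36 ± 0.250 on the log2 scale (SE), 2.56-fold (edgeR adjusted p = 0.00368). Of 25885 peaks tested, 0.444% were called in that comparison and 0.212% were higher at P56. P56 exceeded P14 by 0.98 ± 0.257 (adjusted p = 0.193) and P14 exceeded P1 by 0.37 ± 0.260 (adjusted p = 0.925), where 0.00773% of peaks were called in each. The difference of P56 and P14 passed without P56 replicate 1 (1.20, adjusted p = 0.0206). In 8 of 9 fits with 1 library left out it stayed uncalled, with changes down to 0.56 and edgeR adjusted p up to 0.883. The P56 with P1 call was lost without P56 replicate 2 (0.93, adjusted p = 0.187), and with the concentration of peak counts as a covariate (0.21, adjusted p = 0.665).

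The peak over the Myh6 and Mhrt starts did not pass the test in any comparison. It had 124.2, 266.3 and 339.7 CPM at P1, 152.6, 221.0 and 258.8 CPM at P14, and 173.4, 424.1 and 282.2 CPM at P56, so the 3 stages overlapped. The P56 with P1 difference was 0.28 ± 0.256 on the log2 scale (SE, edgeR adjusted p = 0.601). Over the 3 stages the exact permutation test of F on its CPM gave p = 0.614. Its sign turned to -0.43 (adjusted p = 0.177) without P1 replicate 1 and P56 replicate 2, and to -0.02 (adjusted p = 0.976) with loess offsets. With the concentration of peak counts as a covariate, this peak was called lower at P56 than at P1 (-1.02, edgeR adjusted p = 0.00601). The peak inside Efs differed by 0.67 ± 0.277 (adjusted p = 0.220), with P56 at 73.6, 71.6 and 86.8 CPM and P1 at 57.6, 46.6 and 40.9 CPM, which did not overlap. The peak over the Ngdn start differed by 0.29 ± 0.298 (adjusted p = 0.645). It too was called lower at P56 with the concentration of peak counts as a covariate (-1.11, edgeR adjusted p = 0.0374).

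**Figure D3:**
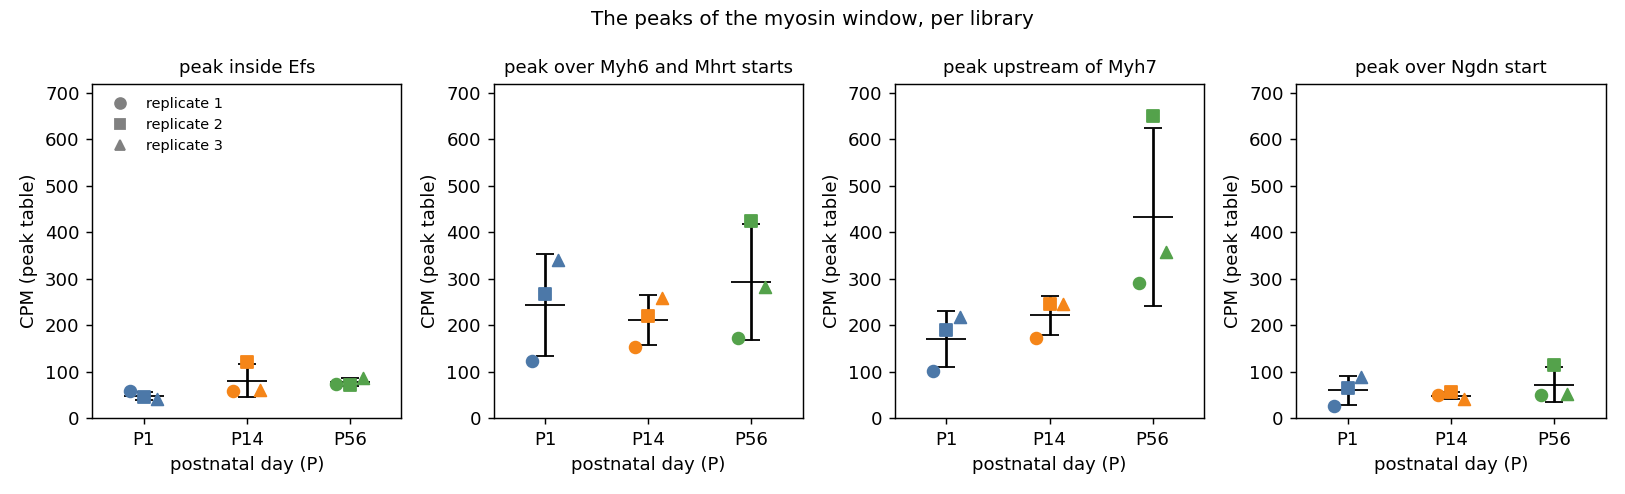
CPM of the 4 peaks of the window in each library, by postnatal day; bars are the mean and SD of 3 libraries. The peak upstream of Myh7 reaches 290.3 to 650.3 CPM at P56, above every P1 and P14 library, and the peak over the Myh6 and Mhrt starts overlaps between all stages.

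The ratio of the upstream peak to the peak over the Myh6 start was examined after the values were seen, because no peak lies in Myh7. It was 0.821, 0.713 and 0.641 at P1, 1.14, 1.11 and 0.951 at P14, and 1.67, 1.53 and 1.27 at P56. The stages again did not overlap (exact permutation p = 0.00357, the smallest possible; 0.00536 adjusted). P56 exceeded P1 2.05-fold in this ratio. The peak and TSS tables count reads of the same libraries, so this is not independent of the ratio at the starts.

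How far the Myh7 start row reads the same DNA as the upstream peak cannot be told, since the width of the TSS regions is not stated. Over the 9 libraries, log2 CPM of the Myh7 row had a Pearson r of 0.977 with the upstream peak and of 0.658 with the peak over the Myh6 start. The Myh6 row had an r of 0.954 with the upstream peak and of 0.891 with the peak over its own start. The Mhrt row had an r of 0.957 with that peak. These are descriptions over libraries that share depth and stage. The Myh7 count was 60.8 to 96.7% of the count of the upstream peak and never above it, which also held for the counts of Myh6 (53.2 to 98.9%) and Mhrt (26.2 to 76.6%). Of 220 TSS regions at least as deep as Myh7 whose gene has a RefSeq start, 65.0% had a peak within 1 kb and 30.0% had none within 5 kb, so Myh7 was 1 of many deep start regions without a peak nearby.

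Of the 3 RNA genes between and inside the myosins with a TSS row, Mir208a alone passed the test, and differences between the 3 were not tested. The long noncoding RNA genes Gm52092, inside Myh6, and Gm31251, which overlaps Myh7, have no such row. The Mir208a region, within Myh6, rose to 48.5, 136.2 and 85.0 CPM at P56, against 26.5, 39.1 and 48.8 CPM at P1 (log2 change 1.26 ± 0.270, SE; edgeR adjusted p = 0.0124). P56 replicate 1 lay just under the highest P1 library, and the call was lost without P56 replicate 2 (0.80, adjusted p = 0.115) or P1 replicate 2 (1.27, adjusted p = 0.0553). Mir208b, within Myh7, had 11.5, 39.9 and 14.0 CPM at P56 and 7.39, 12.3 and 16.8 CPM at P1 (0.93 ± 0.353, adjusted p = 0.127), and it is the lowest row of the window. Mhrt had 51.1, 151.3 and 96.7 CPM at P56 and 36.5, 89.8 and 103.4 CPM at P1 (0.41 ± 0.277, adjusted p = 0.398). Without P1 replicate 1 and P56 replicate 2, the changes of Mhrt and Mir208b turned to -0.45 and -0.25. The counts carry no strand, so reads of Mhrt and of the nearby Myh6 start cannot be told apart where their regions overlap.

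Of the 11 TSS rows in the window, 5 rose between P1 and P56 and 0 fell, where 1.72% of all regions rose and 0.806% fell. All 11 had a log2 change above 0 (median 0.93), where the median of all regions was -0.01. Besides Myh6, Myh7 and Mir208a these were Il25, a cytokine gene, and Cmtm5, which encodes a MARVEL domain membrane protein. Il25 had 38.8, 54.2 and 36.1 CPM at P56 and 17.4, 18.5 and 20.0 CPM at P1, without overlap (1.22 ± 0.281, adjusted p = 0.0191). Cmtm5 had 38.8, 100.8 and 69.9 CPM at P56 and 17.4, 27.4 and 45.2 CPM at P1 (1.24 ± 0.297, adjusted p = 0.0248). Both calls were lost without P56 replicate 2 (1.01 for Il25 and 0.84 for Cmtm5) or without P1 replicate 1 or 2, and that of Cmtm5 also without P56 replicate 3. The adaptor gene Efs (0.83, adjusted p = 0.0686) and Slc22a17, a member of the organic cation transporter family (0.69, adjusted p = 0.104), did not pass although their P56 and P1 libraries did not overlap. Ngdn (0.47, adjusted p = 0.430) and the pseudogene Gm10364 (0.37, adjusted p = 0.395) did not pass either. The largest change of the window was that of Myh7.

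**Figure D4:**
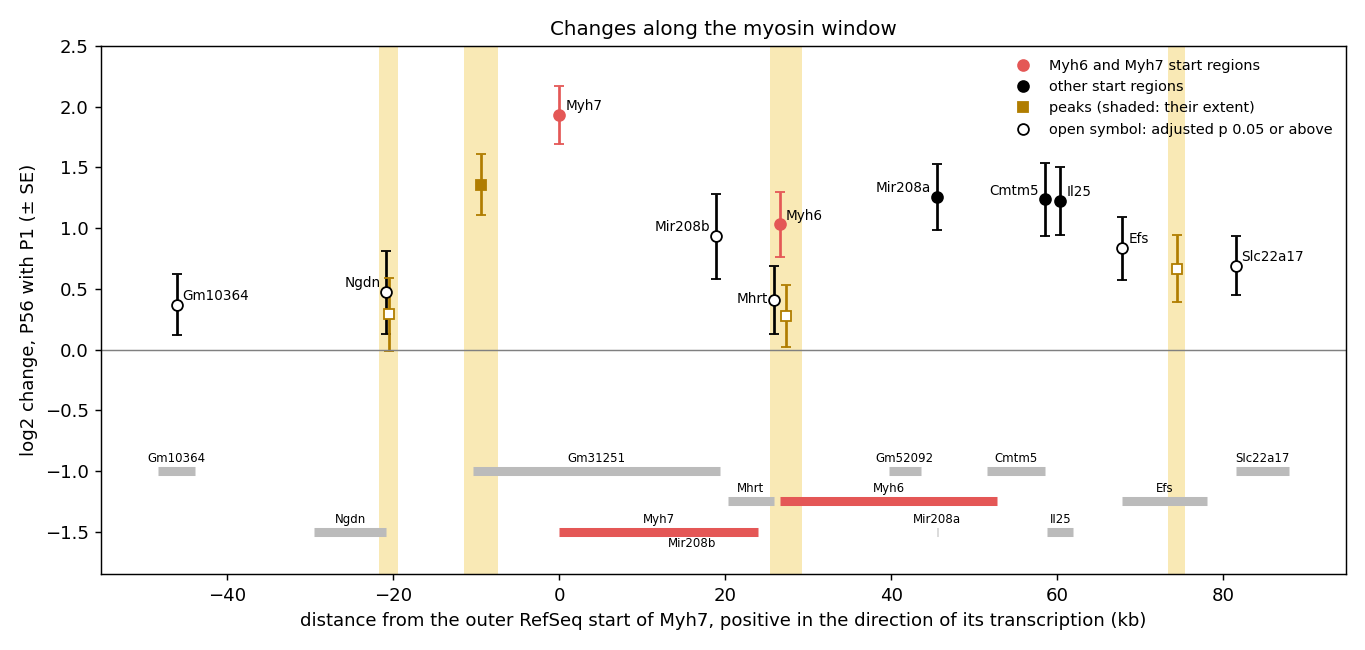
Log2 change of P56 with P1 (± SE) of each start region and peak against distance from the outer RefSeq start of Myh7 in kb; filled symbols have an adjusted p below 0.05, shading shows the extent of peaks and bars at the bottom show genes. Genes without a listed strand are drawn at their middle, and microRNA genes at an end. Myh7 (1.93) and the peak upstream of it (1.36) stand above Mhrt (0.41) and the peak over the Myh6 start (0.28).

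Among the myosin heavy chain family, 12 of 14 listed genes were tested, and 3 rose between P1 and P56, where 1.72% of all regions rose: Myh7, Myh6 and Myh7b. Myh7b, which hosts Mir499, had 137.4, 232.5 and 156.1 CPM at P56 and 77.4, 94.6 and 116.0 CPM at P1, without overlap (0.88 ± 0.178, edgeR adjusted p = 0.00949). None fell, and without P56 replicate 2 only 1 of the 12 was called, where calls over all TSS regions went from 853 to 147. The nonmuscle gene Myh14 (0.43, adjusted p = 0.0759) came next, and the genes of embryonic and perinatal skeletal myosin, Myh3 (-0.20) and Myh8 (-0.36), did not pass. The list's median was 0.21, with 7 of 12 above 0, where 49.3% of all regions were above 0. Mir499 itself differed by 0.63 (adjusted p = 0.166).

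Of 32 tested regulators of the cardiac myosin genes, out of 34 listed, 2 rose and 0 fell between P1 and P56, where 1.72% of all regions rose. They were Thrb, a thyroid hormone receptor (0.88 ± 0.226, adjusted p = 0.0337), and Mef2d, a muscle transcription factor (0.69 ± 0.184, adjusted p = 0.0376). The TSS of Tead3, of the family that binds M-CAT sites (0.56, adjusted p = 0.0534), and the retinoid receptor gene Rxrb (0.63, adjusted p = 0.0564) came next. The other thyroid hormone receptor gene, Thra, differed by 0.12 (adjusted p = 0.726). The list's median was 0.39 and 27 of 32 were above 0, against a median of -0.0076 and 49.3% above 0 over all regions. Without both P1 replicate 1 and P56 replicate 2, 0 were called and the median was -0.06, where 663 of all TSS regions were called. With 1 library left out, 0 were also called without P1 replicate 1 or 2, P14 replicate 1 or 2, or P56 replicate 2. Calls over all TSS regions then went from 853 to between 147 and 481.

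Of the thick filament partners, 19 of 20 listed were tested, and 5 rose, among them Myom3 (0.78) of the M-band, the ventricular light chains Myl3 (0.81) and Myl2 (1.02), and titin, Ttn (0.83). None fell, and the median was 0.53, where 1.72% of all regions rose and their median was -0.0076. Without P56 replicate 2 or P1 replicate 2 the count was 1, where calls over all TSS regions went from 853 to 147 and 220. Mybpc3, cardiac myosin binding protein C, differed by 0.82 (adjusted p = 0.0686), and the atrial light chain genes Myl7 by 0.42 and Myl4 by -0.10. In the comparisons of P14 with P1 and of P56 with P14, 0 members of any of these lists passed, where 0.0119% and 0.00296% of all regions did. With so few calls, these counts do not set the lists apart.

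The rows most like Myh6 over the 9 libraries, by Pearson correlation of log2 CPM among 14584 regions with a mean count of at least 20, were Aldoa (r = 0.999), Lnpep (0.988), Myl2 (0.987), Dnajb5 (0.980) and Zfp46 (0.980). Aldoa encodes a glycolytic aldolase, and its region had 94.3, 190.4 and 128.2 CPM at P56 and 50.4, 85.0 and 112.9 CPM at P1. Like Myh6, it was lowest in P1 replicate 1 and highest in P56 replicate 2, with overlap between the stages. The rows most like Myh7 were Myh7b (0.984), Ptov1 (0.983), Ppp2r4 (0.982), Pdk2 (0.980) and Aes (0.980). Pdk2, a kinase that turns off pyruvate dehydrogenase, had 130.4, 222.7 and 144.5 CPM at P56 and 76.9, 89.8 and 104.5 CPM at P1, without overlap. Myh6 and Myh7 had an r of 0.918 with each other, and Myh7 and Mhrt one of 0.681.

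**Figure D5:**
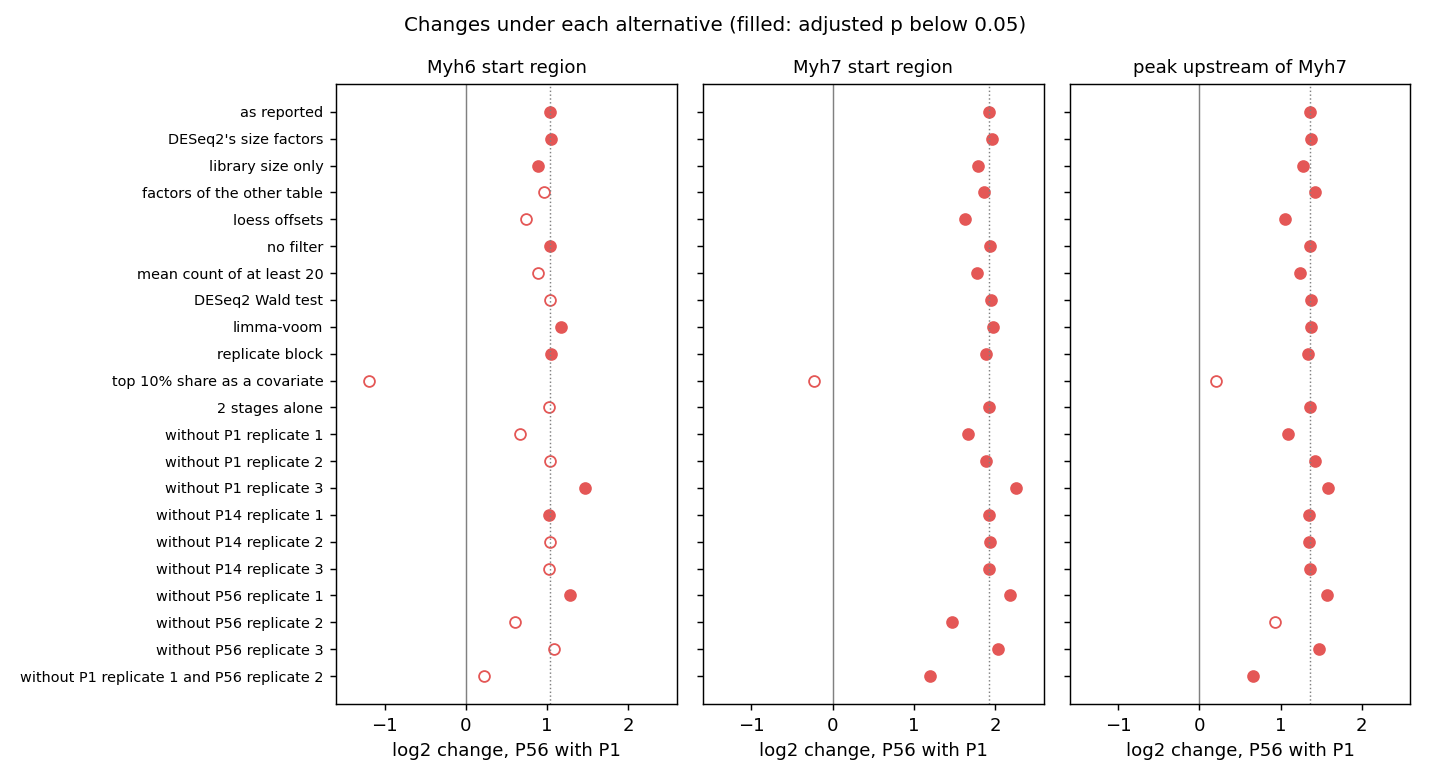
Log2 change of P56 with P1 for the Myh6 and Myh7 start regions and the peak upstream of Myh7 under each setting tried; filled points have an adjusted p below 0.05 and the dotted line is the value as reported. Myh7 stays called in 20 of 21 alternatives, the upstream peak in 19 and Myh6 in 8.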

How the data were processed

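The 9 ATAC-seq libraries are labelled as biological triplicates of P1, P14 and P56. Both tables deposited by the authors hold raw counts, one per gene at its TSS and one per peak of a common list, per the file headers. No deposited row averaged under 10 counts per library. The submitters' processing notes name featureCounts 1.4.2, bedtools 2.26, MACS 1.4.0, SAMtools 1.3.1, BWA 0.7.10 and bcl2fastq 2.17.1.14 with build GRCm38, and give no role or order. The width of TSS regions, the choice of starts per gene, read filters and the pooling behind the peak calls are not given in the sources used here.

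Each table was fitted whole with edgeR 4.0.16 (R 4.3.3): TMM scaling, the default expression filter by stage (33747 TSS regions and 25885 peaks kept), 1 coefficient per stage and the two-sided quasi-likelihood F test, with Benjamini-Hochberg adjustment over the table and a threshold of 0.05. Levels are CPM. On simulated counts with known changes, the P56 with P1 test recovered 34% of 100 TSS regions changed 2-fold and 90% of 100 changed 3-fold; for peaks the shares were 16% and 74%.

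Ratios within libraries used a pseudocount of 0.5 on the log2 scale and two-sided exact permutation tests. A peak belonged to the window on chromosome 14 when it lay wholly inside it. Genes, promoter windows and microRNAs came from RefSeq tables of GRCm38.p6, in which 75.0% of TSS symbols were found. Alternatives were other scalings (DESeq2 1.42.0 size factors, library size, the other table's factors, loess offsets of span 0.3), filters, the DESeq2 Wald test, limma-voom (limma 3.58.1), the replicate number as a block, the top 10% share as a covariate, fits of 2 stages alone, a ratio pseudocount of 5 and left-out libraries; the peak ratio was added after seeing the data.

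Named were the pair, the window's peaks and genes, up to 4 members of each list with the smallest p, and the 5 rows most correlated with each of the pair, leaving out predicted genes and genes within 100 kb; other list members and Thra, Myh3, Myh8, Myl4, Myl7 and Ttn were named after their values were seen. The members and gene lists were chosen with earlier results of these data known. The values of 1 listed gene are not reported here.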

Additional observations from a re-analysis of the deposited data

How the results depend on the processing

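Myh7 kept its direction and call in P56 with P1 under 20 of 21 alternatives, the upstream peak under 19 and Myh6 under 8, and the Myh7 to Myh6 ratio kept its direction with a pseudocount of 5, with each library left out and without both P1 replicate 1 and P56 replicate 2. As reported, 853, 4, 1 and 3 TSS regions and 115, 2, 2 and 2 peaks were called in P56 with P1, P14 with P1, P56 with P14 and timing (the change before P14 minus that after it). In that order, 2 stages alone gave 185, 7 and 23 TSS regions and 49, 7 and 14 peaks with no timing. The DESeq2 Wald test gave 292, 1, 1 and 0 TSS regions and 77, 2, 0 and 1 peaks, limma-voom 947, 1, 0 and 0 and 49, 2, 0 and 0, and loess offsets 197, 1, 1 and 1 and 46, 0, 0 and 2. A mean count of at least 20 gave 270, 2, 0 and 1 and 44, 0, 0 and 1. DESeq2's size factors gave 0 TSS regions in P56 with P14 and 1 in timing, library size alone 11 TSS regions in P56 with P14 and 0 peaks in P14 with P1, and the other table's factors 4 peaks in P56 with P14. The top 10% share as a covariate gave 0, 0, 0 and 1 TSS regions and 602, 752, 0 and 22 peaks. It was the share of TSS regions in fits of those and the share of peaks in fits of peaks. With neither P1 replicate 1 nor P56 replicate 2 the counts were 663, 293, 21 and 16 TSS regions and 691, 1039, 2 and 149 peaks. Of the P56 with P1 calls in TSS regions, 581 were higher and 272 lower as reported, 319 and 778 with library size alone (which moved the median of all regions by -0.14), and 332 and 339 with the other table's factors. Among peaks 55 were higher and 60 lower as reported, 41 and 83 with library size alone and 102 and 48 with the other table's factors.

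Myh6 in P56 with P1 missed the threshold with 2 stages alone (1.03, adjusted p = 0.0867), the DESeq2 Wald test (1.04, 0.226), the other table's factors (0.96, 0.0564), loess offsets (0.74, 0.156) and a mean count of at least 20 (0.88, 0.0959), and without P1 replicate 1 and P56 replicate 2 (0.22). Myh7 in P56 with P14 passed with 2 stages alone (1.13) and without both libraries (0.72). The peak over the Myh6 start turned to -0.021 in P56 with P1 with loess offsets, and the Efs peak in P56 with P14 turned to 0.035 with limma-voom.

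With that covariate, the P56 with P1 change turned to -1.20 for Myh6, -0.23 for Myh7, -0.64 for Efs, -0.66 for Il25, -0.82 for Cmtm5, -1.15 for Mir208a, -2.10 for Mhrt, -1.78 for Mir208b and -1.97 for Ngdn, without a call. The peak over the Myh6 start (-1.02, edgeR adjusted p = 0.00601) and the Ngdn peak (-1.11, adjusted p = 0.0374) were called lower at P56. The upstream peak fell short at 0.21. In P14 with P1 the covariate gave -1.12 for Myh6, -0.53 for Myh7 and -0.57 for the peak over the Myh6 start, which passed. In P56 with P14 it gave -0.074 for Myh6, -0.45 for that peak, -0.49 for the Ngdn peak and 0.028 for the Efs peak. Without both P1 replicate 1 and P56 replicate 2, P56 with P1 gave -0.43 for the peak over the Myh6 start, -0.62 for the Ngdn peak, -0.45 for Mhrt, -0.25 for Mir208b, -0.57 for Ngdn, 0.66 for the upstream peak and a call for the Efs peak (0.87). In P14 with P1 it gave -0.18 for Myh6, -0.67 for the Ngdn peak and calls for the Efs peak (0.83) and the peak over the Myh6 start (-0.56), and in P56 with P14 0.04 for the Efs peak. The causes were not tested.

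Of list members called, library size alone left 1 regulator, and loess offsets left 1 myosin heavy chain, 0 regulators (median 0.14) and 1 thick filament partner. Without both libraries the counts were 1 heavy chain, 0 regulators (median -0.062) and 0 RNA genes (median -0.0057), and the thick filament median was 0.012.

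Whether the replicate numbers pair the libraries was not settled. Deviations of same-numbered libraries from their stage means correlated weakly, at -0.07 to 0.22 for P56 and P1, 0.02 to 0.10 for P14 and P1 and -0.00 to 0.07 for P56 and P14. Of 18 comparisons, each among 3 libraries, 12 were best with the own number. The labels name no pairing, so the block was kept as an alternative only. With the replicate block, 1982, 12, 76 and 5 TSS regions and 684, 18, 41 and 10 peaks were called. Myh7 then passed in P14 with P1 (0.80) and P56 with P14 (1.08), and Myh6 (0.73) and the upstream peak (0.91) in P56 with P14.

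With each library left out in turn, calls ranged from 147 to 1523, 0 to 9, 0 to 101 and 0 to 4 TSS regions and from 0 to 649, 0 to 41, 0 to 292 and 0 to 9 peaks. The 147 TSS regions and 0 peaks of P56 with P1 came without P56 replicate 2, where 2282 peaks had an unadjusted edgeR p below 0.05. The P56 with P1 change ranged from 0.61 to 1.47 for Myh6, -0.06 to 0.72 for Mhrt, -0.11 to 0.99 for Ngdn, 0.93 to 1.58 for the upstream peak, -0.10 to 0.60 for the peak over the Myh6 start and -0.25 to 0.71 for the Ngdn peak, with up to 1.27 for Mir208b and at least 0.55 for the Efs peak. In P14 with P1 it ranged from -0.13 to 0.67 for Myh6, -0.54 to 0.10 for the peak over the Myh6 start and -0.66 to 0.11 for the Ngdn peak and 0.29 to 0.89 for the Efs peak. In P56 with P14 it ranged from 0.71 to 1.40 for Myh7, 0.56 to 1.20 for the upstream peak and -0.24 to 0.36 for the Efs peak, and in timing from -0.69 to 0.083 for Myh7 and -0.067 to 1.14 for the Efs peak. List members called ranged from 1 to 3 heavy chains, 0 to 3 regulators (median 0.12 to 0.48), 0 to 2 RNA genes (0.19 to 1.00) and 1 to 8 thick filament partners (0.17 to 0.70).

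Summed counts of peaks inside Myh7 could not be had, since no peak lies there. At P14, with 62 to 83 counts per region and library for the pair, differences of less than the counting intervals were not detectable.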

Other observations

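TSS rows of genes with more RefSeq transcripts had higher counts: the median of the mean CPM over all libraries was 18.7 for 8733 genes with 1 transcript, 27.4 with 2, 33.1 with 3 to 5, 41.8 with 6 to 10 and 59.4 for 1750 genes with more than 10. Myh7 has 3 RefSeq transcripts and Myh6 has 4. Whether the rows sum several starts of a gene is not given in the sources used here. This limit applies where levels were compared between genes, as with the regions at least as deep as Myh7.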
